A study of Mus musculus with 5 samples.

Results

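The vacuolar proton pump, or V-ATPase, was followed through 10 of its subunit genes in parvalbumin-positive cells of mouse cerebral cortex: Atp6v0b, Atp6v0c and Atp6v0d1 of the membrane domain V0, and Atp6v1a, Atp6v1b2, Atp6v1d, Atp6v1e1, Atp6v1g1, Atp6v1g2 and Atp6v1h of the cytosolic domain V1. Members were taken by gene symbol from the platform annotation, which gave 14 of the 45281 probes on the array, for 9 of the 10 genes. No probe carried the symbol Atp6v0c there, and that gene is not analysed here. The cells were sorted from mice of strain C57BL/6J that carry the PV-GFP reporter, a green fluorescent marker of parvalbumin-expressing cells. The 3 WT samples (replicates 1, 2 and 3, aged 61, 64 and 64 days) were labelled Clock+/+, and the 2 KO samples (replicates 1 and 3, aged 61 and 60 days) Clock-/-, with the circadian transcription factor gene Clock deleted. All 5 were collected at zeitgeber time 16 h, counted from lights-on, and each was read on 1 single-colour Illumina bead array. The labels do not say in which cells Clock was deleted, nor whether a sample is 1 animal or a pool, so the p-values reflect the spread of these samples alone, which may be technical.

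The V-ATPase is a rotary machine that spends ATP to move protons across membranes. In V1, a ring of alternating A and B subunits hydrolyses ATP, a central stalk that includes subunit D turns inside it, and peripheral stalks, each a pair of an E and a G subunit, hold the ring in place, with subunit H tying V1 to V0. In V0, subunit d joins the central stalk to a turning ring of c subunits with a single related c'' subunit, the product of Atp6v0b, and protons cross where that ring meets subunit a. The pump acidifies lysosomes and endosomes in most cells, and in neurons also synaptic vesicles, where the proton gradient drives transmitter loading. In GABA-releasing cells the loading transporter is the product of Slc32a1.

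CLOCK and its partner BMAL1 bind E-box elements, whose core letters are CACGTG, so the start regions of the members were searched for these letters, which read the same on both strands. The windows came from RefSeq (build GRCm38.p6) and run from 250 bases before to 50 bases after an annotated gene start. Windows were held for 7 of the 10 members, some with more than 1 start. Atp6v1b2, Atp6v1g1 and Atp6v1h had no window and were not searched. Of their 10 windows 3, each of a different gene, had the core E-box, compared with 7.15% of all 32851 windows in the table. Both whole windows shown are of tested members. Among the tested members with a window, Atp6v1a is the one with a match. Its window is at chr16:44139210-44139509 on the minus strand, and the match begins 131 bases before the start. Atp6v1e1, the member with the lowest KO value relative to WT, had none in its window at chr6:120822649-120822948, also on the minus strand. Sequences run 5′ to 3′ along the gene, with the E-box in capitals.
Atp6v1a: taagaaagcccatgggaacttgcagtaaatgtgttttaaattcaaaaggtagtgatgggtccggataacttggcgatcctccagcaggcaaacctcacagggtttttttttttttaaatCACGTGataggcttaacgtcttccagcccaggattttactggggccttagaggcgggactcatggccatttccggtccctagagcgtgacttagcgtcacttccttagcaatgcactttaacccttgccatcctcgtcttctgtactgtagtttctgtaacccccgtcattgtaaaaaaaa
Atp6v1e1: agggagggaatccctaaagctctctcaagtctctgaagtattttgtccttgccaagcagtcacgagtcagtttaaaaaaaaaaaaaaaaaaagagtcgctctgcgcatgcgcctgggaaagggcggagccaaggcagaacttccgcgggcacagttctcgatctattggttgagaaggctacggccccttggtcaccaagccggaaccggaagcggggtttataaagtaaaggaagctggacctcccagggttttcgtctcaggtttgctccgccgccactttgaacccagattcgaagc
The other matches lay in V0 genes, shown here with 12 bases on either side. The window of Atp6v0b (chr4:117887280-117887579, minus strand) held 2, which begin 36 and 18 bases before the start, and that of Atp6v0d1 (chr8:105566015-105566314, minus strand) held 1, which begins 3 bases before it.
Atp6v0b: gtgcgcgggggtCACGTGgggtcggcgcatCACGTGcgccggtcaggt
Atp6v0d1: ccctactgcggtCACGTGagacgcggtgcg
The windows of Atp6v0c, Atp6v1d and Atp6v1g2 held no match. A match is a string of letters and no evidence of binding.

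Few probes stood above background on these arrays, and this sets what can be said of the pump. A detection p-value, deposited for each probe and array, sets the probe against background on its own array, and a probe with a value under 0.05 counted as detected. Between 1978 probes (KO replicate 3) and 3671 probes (WT replicate 1) were detected per array, and 3347 probes (7.39%) passed the filter of detection on at least 2 arrays and were tested. KO replicate 3 also stood apart in its values, correlating with the other arrays at 0.751 to 0.827 across tested probes, while those 4 correlated with each other at 0.860 to 0.924. None of the 3 Clock probes was detected on any array, so the deletion could not be checked. Of the parvalbumin interneuron markers, 8 of 12 had a tested probe, Pvalb, Gad1, Gad2 and Slc32a1 among them, while Syt2 and Lhx6 were detected on no array. None of 9 excitatory neuron, 9 microglia, 8 endothelial and mural or 4 blood cell markers had a tested probe, and 1 of 8 astrocyte markers (Aldh1l1) and 1 of 8 oligodendrocyte markers (Mbp) did.

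The genes of the V1 ring and peripheral stalk passed the filter, Atp6v1g1 at the edge of detection. The V0 members with probes and the remaining V1 members did not. Of the 14 member probes 5 were tested, 1 each for Atp6v1a, Atp6v1b2, Atp6v1e1, Atp6v1g1 and Atp6v1g2. Atp6v1a, Atp6v1b2 and Atp6v1e1 were detected on all 5 arrays, as were 1038 probes (2.29%) of the whole array. The 9 probes that did not pass comprised 8 detected on no array and 1 detected on WT replicate 1 alone. Counted by array, WT replicates 1, 2 and 3 detected 6, 4 and 4 of the 14 member probes, while KO replicate 1 detected 5 and KO replicate 3 detected 3. Of all probes, the same arrays detected 8.11, 6.06 and 5.93% in WT and 5.98 and 4.37% in KO, so KO replicate 3 was also lowest over the whole array. Probes differ in how brightly they bind, so a probe below background does not show that its gene is silent, and levels are not set against each other between genes.

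**Figure D1:**
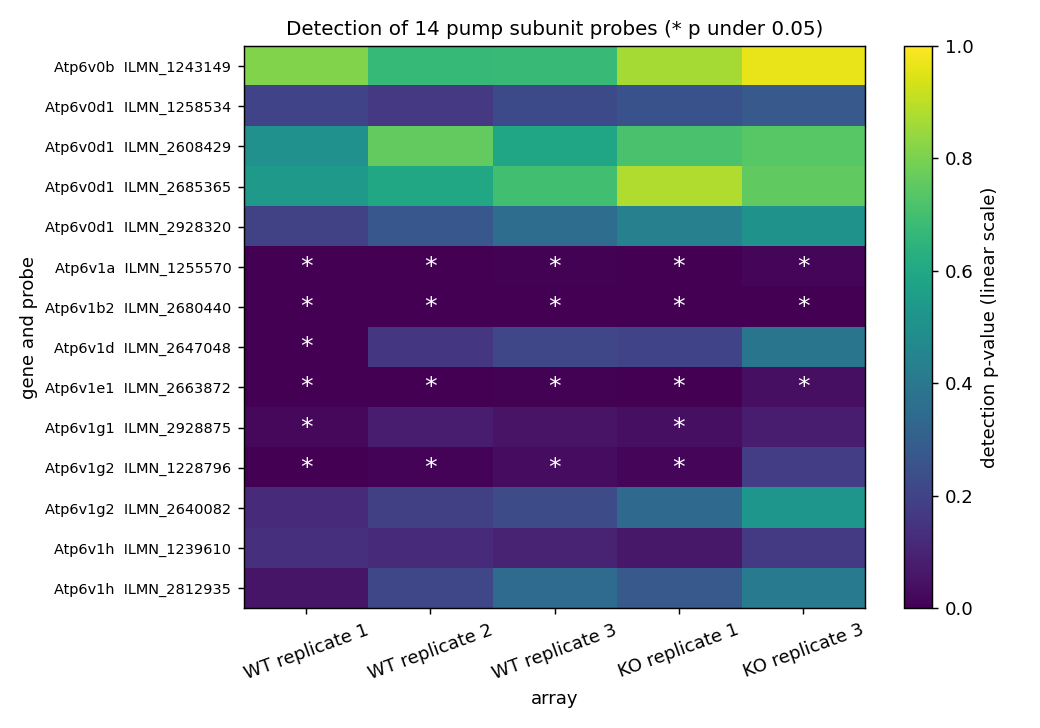
Detection p-value (colour, linear scale from 0 to 1) of each of the 14 pump subunit probes (rows) on each of the 5 arrays (columns), with an asterisk where it is under 0.05. Atp6v1a, Atp6v1b2 and Atp6v1e1 carry an asterisk on all 5 arrays, and none of the 5 V0 probes carries any.

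Both V0 members with probes lay at background on every array. The single probe of Atp6v0b read raw intensities of 839, 1402 and 1639 in WT and 1408 and 1249 in KO (in the order of their replicate numbers, here and in what follows), with detection p-values from 0.669 to 0.966. Atp6v0d1, the d subunit, had 4 probes, which read between 1021 and 2434 with detection p-values from 0.166 to 0.882. None of the 4 was detected on any array, and neither gene is given a fold change.

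The V1 members that were not tested are Atp6v1d and Atp6v1h. Atp6v1d, the rotor subunit of the central stalk, was detected on WT replicate 1 (raw intensity 2112, detection p-value 0.00214) and not on the others, where its detection p-values were 0.158 and 0.214 in WT and 0.201 and 0.389 in KO. Being detected on 1 array, it did not enter the test. Atp6v1h, whose product links V1 with V0, had 2 probes with raw intensities between 1450 and 2907. The lowest detection p-value of one was 0.0556 on WT replicate 1 and of the other 0.0641 on KO replicate 1. These 2 lowest values just missed the threshold, on arrays of different groups. On the remaining arrays the detection p-values of the 2 probes ran from 0.10 to 0.41.

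KO samples were compared with WT samples to ask whether deletion of Clock altered expression of the pump, and no pump gene passed the test. Over all 3347 tested probes, 0 (0%) had an adjusted p under 0.05 by limma with Benjamini-Hochberg adjustment, and none of the 5 member probes did. At an unadjusted p under 0.05 there were 0 of 5 member probes and 198 (5.92%) of all tested probes. Both KO arrays lay below all 3 WT arrays in 10.6% of tested probes and above them in 11.2%, and in neither case for any of the 5 members, whose groups all overlapped. The differences, KO minus WT on the log2 scale, had a median of -0.13 over the 5 member probes and 0.0048 over all tested probes, and 3 of 5 members and 49.4% of all tested probes were below 0. This median describes only the members that passed the filter on dim probes. Scaling by array medians in place of quantile normalization moved the median of all tested probes to -0.39, and under it all 5 members were below 0, from -1.57 for Atp6v1b2 to -0.30 for Atp6v1g1. In a bulk sample fewer cells of a type and less RNA per cell cannot be told apart.

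**Figure D2:**
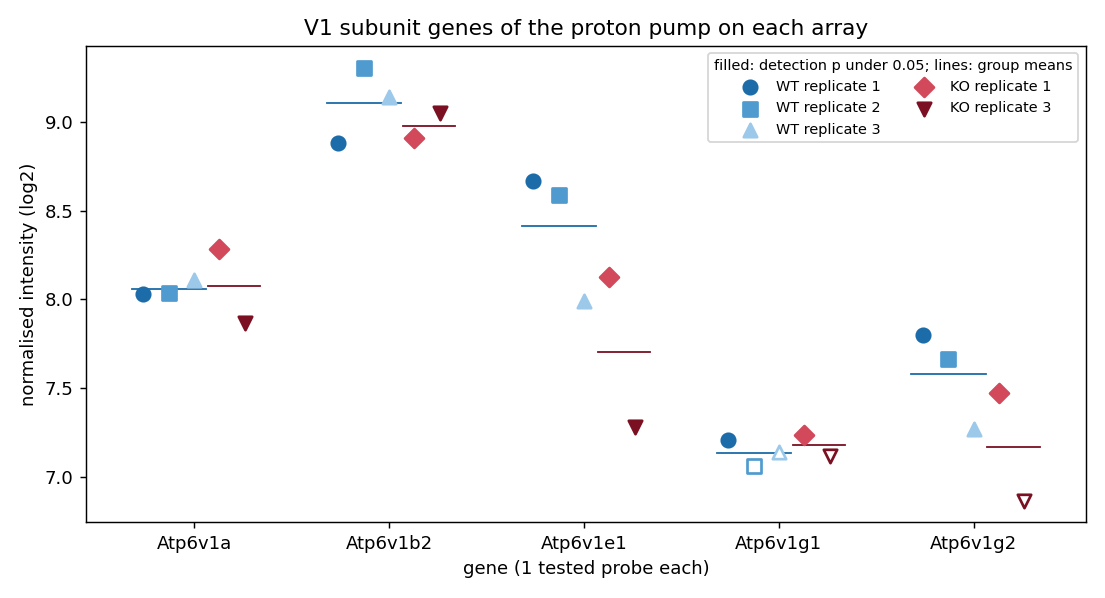
Normalised intensity (log2, vertical axis) of the 5 tested V1 genes on each array, with blue symbols for WT, red for KO, filled symbols where the probe was detected and lines for the group means. For Atp6v1e1 and Atp6v1g2 KO replicate 3 is the lowest point (7.28 and 6.86), while KO replicate 1 lies within the WT range of both.

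The genes of the ring subunits A and B had differences smaller than their standard errors, and neither passed the test. Atp6v1a, which encodes the catalytic A subunit, had raw intensities of 2566, 3336 and 3747 in WT and 3708 and 3110 in KO. After normalization its 3 WT arrays read 8.03, 8.03 and 8.11, KO replicate 1 read 8.29 and KO replicate 3 read 7.87. The WT arrays were close together, with one KO array above and the other below all of them. WT averaged 8.06 ± 0.044 (SD, n = 3), while KO averaged 8.08 ± 0.29 (SD, n = 2). The Atp6v1a difference was 0.020 ± 0.18 (SE), with a 95% interval from -0.40 to 0.44 (limma adjusted p 0.986). That interval leaves room for a change of either sign. Without KO replicate 3 the difference was 0.23 and without KO replicate 1 it was -0.19, with the other values kept as normalised together.

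Atp6v1b2, the brain form of the B subunit, was the member with a detection p-value of 0 on all 5 arrays. Its raw intensities were 3380, 4574 and 4561 in WT and 4217 and 3778 in KO, and its normalised values 8.88, 9.31 and 9.14 in WT and 8.91 and 9.05 in KO. Both KO arrays lay inside the WT range. The means were 9.11 ± 0.22 (SD, n = 3) and 8.98 ± 0.10 (SD, n = 2), and the difference was -0.13 ± 0.18 (SE), with a 95% interval from -0.56 to 0.30 (limma adjusted p 0.879). KO replicate 3, the lowest array for 3 of the 5 members and for 29% of all tested probes, lay between the WT arrays for Atp6v1b2. Without WT replicate 2, the highest array for this gene, the difference was -0.031.

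The stalk subunits E and G2 had the widest differences among the members, and neither passed the test. Atp6v1e1 encodes the E subunit found throughout the body. Its raw intensities were 3153, 3739 and 3695 in WT and 3611 and 2855 in KO, and its normalised values 8.67, 8.59 and 7.99 in WT and 8.13 and 7.28 in KO. KO replicate 1 thus fell between WT replicates 3 and 2, and KO replicate 3 lay below all other arrays. Atp6v1e1 averaged 8.42 ± 0.37 in WT (SD, n = 3) against 7.71 ± 0.60 in KO (SD, n = 2). The difference was -0.71 ± 0.31 (SE), with a 95% interval from -1.44 to 0.015 (limma unadjusted p 0.0538, adjusted p 0.801). Most of it came from 1 array: KO replicate 1 stood at -0.29 from the WT mean and KO replicate 3 at -1.13. With KO replicate 3 left out and the values kept the difference was -0.29, and with KO replicate 1 left out it was -1.13 (limma adjusted p 0.180, with KO replicate 3 as the sole KO array, assumed to vary like the WT arrays). When WT replicate 1 was left out and the remaining arrays were normalised anew it was -0.22, against -0.59 with the values kept. The difference was -0.21 without background correction and -0.29 after cyclic loess normalization.

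Atp6v1g2, the neuronal form of the G subunit, had 2 probes that gave different amounts of information. The tested probe read raw intensities of 2377, 3133 and 3276 in WT and 3275 and 2352 in KO, and was detected on all arrays but KO replicate 3 (detection p-value 0.181). Its normalised values were 7.80, 7.66 and 7.27 in WT and 7.47 and 6.86 in KO. Again KO replicate 1 lay within the WT range and KO replicate 3 below it. The Atp6v1g2 means were 7.58 ± 0.28 (SD, n = 3) and 7.17 ± 0.43 (SD, n = 2), and the difference was -0.41 ± 0.25 (SE), with a 95% interval from -0.99 to 0.17 (limma unadjusted p 0.140, adjusted p 0.801). Without KO replicate 3 it was -0.10 and without KO replicate 1 it was -0.71, values kept. On the authors' processed values it was -0.73, and with no background correction -0.22. The second probe, with raw intensities from 1473 to 2420, was detected on no array and gives no fold.

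Atp6v1g1, the widely expressed G subunit, lay at the edge of detection. It was detected on WT replicate 1 (detection p-value 0.0203) and KO replicate 1 (0.0395) and narrowly missed on the other arrays (0.0534 to 0.0748). Its normalised values were 7.20, 7.06 and 7.14 in WT and 7.23 and 7.12 in KO, a difference of 0.041 ± 0.15 (SE) with a 95% interval from -0.32 to 0.40 (limma adjusted p 0.969). Values this close to background compress fold changes, so the narrow spread of Atp6v1g1 is not evidence of a steady level. Whether the G1 and G2 genes differ in their response was not tested.

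**Figure D3:**
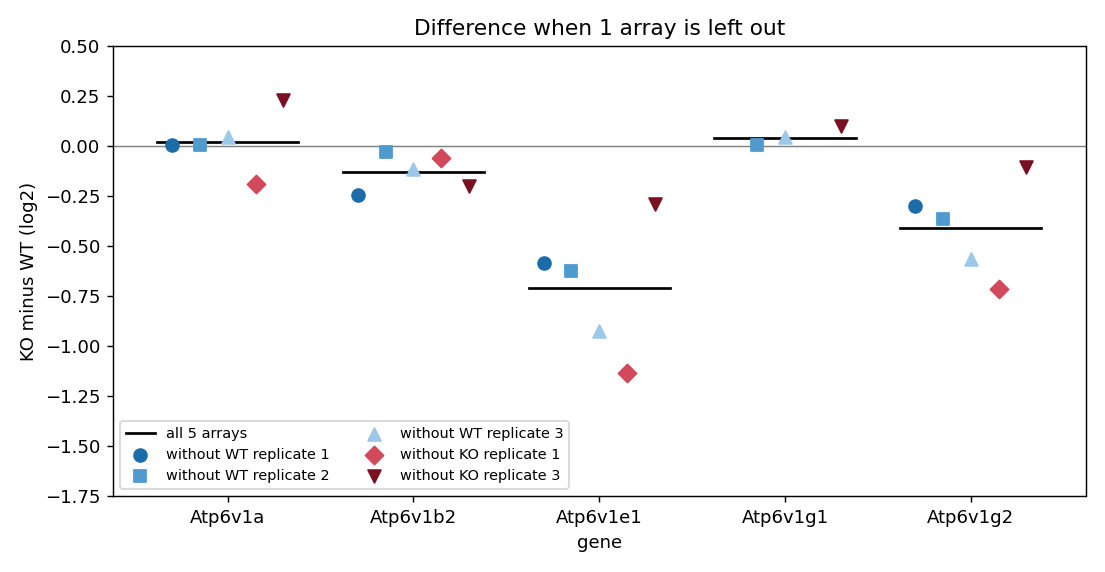
Difference between KO and WT (log2, vertical axis) for each tested V1 gene with all 5 arrays (black line) and with each array left out in turn, the other values kept (symbols). Atp6v1e1 moves from -0.71 to -0.29 without KO replicate 3 and to -1.13 without KO replicate 1, and Atp6v1g1 has no symbol without WT replicate 1 or KO replicate 1, since it then fell short of 2 detected arrays.

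Atp6v1e1 and Atp6v1g2 ranked the 5 arrays in the same order, highest on WT replicate 1, then WT replicate 2, KO replicate 1, WT replicate 3 and KO replicate 3. This is also the order of the arrays by their number of detected probes, 3671, 2744, 2709, 2685 and 1978. The same order was found in 2 of the 5 member probes and in 155 (4.63%) of all tested probes. The parvalbumin gene Pvalb, the marker the sort relies on, was lowest on KO replicate 3 as well, where it was not detected (detection p-value 0.0588). It read 7.19 there, against 8.22 on KO replicate 1 and 8.79 to 9.18 in WT. Background-corrected and quantile-normalised signal was summed over all probes of the 12 parvalbumin interneuron markers, undetected ones included. The sum was 6462 to 7023 in WT, 6401 on KO replicate 1 and 4390 on KO replicate 3. The 9 excitatory neuron markers were detected on no array, so their sum of 1217 to 1246 in WT and 1178 to 1249 in KO is background. The part of these differences in the pump values was not tested.

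The wider complex was read from a list of 17 further subunit and accessory symbols, of which 15 were on the array and 6 were tested, with 7 probes. None passed in either direction (limma, smallest adjusted p 0.801). Of the 7 differences 5 were below 0, with a median of -0.20. Of all tested probes 49.4% were below 0, with a median of 0.0048. Atp6v0a1 encodes the form of the a subunit enriched at nerve terminals, and its 2 tested probes did not give the same size. Probe ILMN_1247682 of Atp6v0a1 read 8.32, 8.16 and 7.46 in WT and 7.27 and 7.25 in KO. Both KO arrays thus lay below all WT arrays, as in 10.6% of all tested probes. The difference was -0.72 ± 0.27 (SE, limma unadjusted p 0.0296, adjusted p 0.801). This unadjusted p was the smallest of the 12 tested pump probes, and 5.92% of all tested probes had one under 0.05. Without WT replicate 1 the difference of ILMN_1247682 was -0.55 with the values kept and -0.20 after the others were normalised anew. Probe ILMN_1256334 of the same gene read 7.41, 7.18 and 7.29 in WT and 7.18 and 7.20 in KO, a difference of -0.10. Outside WT replicate 1 it lay at the edge of detection, with detection p-values from 0.030 to 0.059. Values this close to background compress fold changes, so its smaller difference is not evidence of a smaller change. On KO replicate 3 neither probe was detected (detection p-value 0.052 for ILMN_1247682).

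Atp6ap2, the prorenin receptor, an accessory protein needed for assembly of the pump, had 4 probes, of which 3 were detected on no array. The tested probe read 9.03, 8.64 and 8.52 in WT and 8.66 and 7.36 in KO. Its difference of -0.73 ± 0.37 (SE, limma adjusted p 0.801) lay almost wholly with KO replicate 3, since it was -0.075 without that array, values kept. Leaving out WT replicate 1 and normalising the other 4 arrays anew gave -0.21. Atp6v1c1, the C subunit that clamps the stalks together, was tested with 1 of its 2 probes. That probe differed by -0.31 ± 0.20 (SE) and, like Atp6v1e1 and Atp6v1g2, ranked the arrays in the order of their detected probes. The other 3 tested genes are named to complete the complex, after their values were seen. Atp6v0e2, a small V0 subunit, differed by -0.20, and Atp6ap1, an accessory glycoprotein, by 0.020, with KO replicate 1 above all WT arrays and KO replicate 3 below them. The Atp6ap1 difference depended on the scaling, at -1.51 under median scaling and 1.45 after cyclic loess. Atp6v1b1, the B subunit form best known from kidney and inner ear, was detected on all 5 arrays with 1 of its 2 probes and differed by 0.25. Its group values overlapped, at 7.20 to 7.39 in WT and 7.35 to 7.73 in KO.

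**Figure D4:**
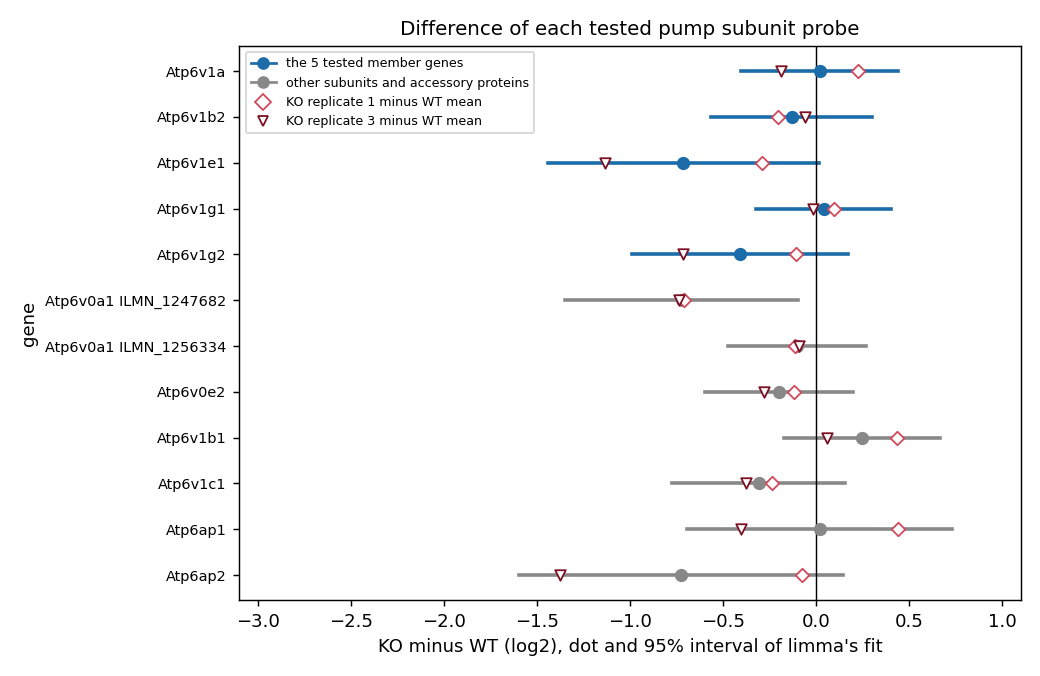
Difference between KO and WT (log2, horizontal axis) of the 12 tested probes of the pump, with dots for limma's estimate, bars for its 95% interval and open symbols for each KO array minus the WT mean. Every interval but that of Atp6v0a1 probe ILMN_1247682 includes 0, and the open symbols of Atp6v1e1, Atp6v1g2, Atp6ap1 and Atp6ap2 lie farthest apart, at either side of 0 for Atp6ap1.

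Genes that assemble, regulate or depend on the pump did not pass the test either. Of 20 assembly and regulation genes on the array 3 were tested, with 4 probes, and 0 passed. Oxr1, a TLDc-domain protein whose yeast namesake detaches V1 from V0, had 2 of its 3 probes tested. The tested probes differed by -0.64 and -0.39, and by -0.16 and -0.27 without KO replicate 3, values kept. The other Oxr1 probe was detected on no array. Wdr7, a subunit of the rabconnectin complex that aids pump assembly, was detected with 1 of its 2 probes on 2 of 3 WT arrays. That probe was detected on neither KO array. It passed the filter through WT arrays alone, so this split is not support for a decrease. Wdr7 has no fold, since the bound set by the lowest detected signals was under 1. Tfe3, a transcription factor of lysosomal genes, differed by 0.061.

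Among genes of vesicle filling that the proton gradient drives or balances, 4 of 16 on the array were tested, and 0 passed. Slc32a1, the transporter that loads GABA into vesicles, read 9.05, 8.93 and 8.95 in WT and 8.95 and 8.42 in KO, a difference of -0.29 ± 0.20 (SE, limma adjusted p 0.801). KO replicate 1 lay within the WT range, and without KO replicate 3 the difference was -0.032. Of the chloride-proton exchanger genes, Clcn3 had 1 of 5 probes tested and Clcn4 1 of 2. Both tested probes were detected on 2 of 3 WT arrays and on neither KO array. They passed the filter through WT arrays alone, so this split is not support for a decrease. The Clcn4 probe narrowly missed detection on WT replicate 3 (detection p-value 0.059) and on KO replicate 1 (0.068). For Clcn4 the bound set by the lowest detected signals was 1.03-fold lower in KO. That bound takes no account of the spread between arrays. The 95% interval of the Clcn4 difference ran from -0.57 to 0.18 on the log2 scale (limma adjusted p 0.801), so a decrease is not shown. Clcn3 has no fold, its bound being under 1.

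Lysosomal genes, whose products work in a compartment the pump acidifies, did not pass. Of 35 on the array 8 were tested, with 9 probes, 2 of them for Psap. Of the 9 differences 6 were above 0, with a median of 0.16. Of all 3347 tested probes 1694 were above 0, with a median of 0.0048. Lamp2, Npc1 and Glb1 each rest on 1 probe made to a cDNA clone, of 7, 7 and 4 probes, and their other probes were not tested. Lamp2, a membrane protein of lysosomes, read 7.50, 7.52 and 7.88 in WT and 8.08 and 8.08 in KO. Both KO arrays lay above all WT arrays, and the difference was 0.45 ± 0.18 (SE, limma unadjusted p 0.0391, adjusted p 0.801). Of all tested probes 5.92% had an unadjusted p under 0.05. Without WT replicate 1 the Lamp2 difference fell to 0.12 with the other arrays normalised anew, and to 0.38 with the values kept. Npc1, the lysosomal cholesterol transporter, differed by 0.38, and by 0.031 without KO replicate 3. Glb1, the lysosomal beta-galactosidase, differed by 0.27, and its KO values lay above every WT value, as in 11.2% of all tested probes. Its values were near the edge of detection, at 6.96 to 7.20 in WT and 7.35 and 7.41 in KO. On WT replicate 1 it was not detected (detection p-value 0.076). When arrays were scaled by their medians instead of quantile normalised, all tested probes shifted to a median of -0.39 and the differences of Lamp2, Npc1 and Glb1 were -0.48, -0.33 and -0.14. No test set the lysosomal genes against the pump genes.

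The genes whose profile over the 5 arrays was most like the mean of the 5 tested members were Prelid3b, Cds1, Nsf, Cd47 and 2610507B11Rik. Likeness was the root mean square difference between profiles centred on their own mean, and it ran from 0.035 to 0.052 log2 units for these 5, against a median of 0.26 over 2242 genes. With 5 arrays that differ in their number of detected probes this is a description only. The mean member profile was highest on WT replicate 2 (0.17 above its own mean) and lowest on KO replicate 3 (-0.33).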

How the data were processed

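Signal and detection p-value were given, per the file headers, for 45281 probes on 5 arrays, as raw intensity values that the authors deposited without normalization. Each deposited detection p-value sets a probe against background on its own array. A second deposited table gives processed intensity values by the authors, linear and in part below 0. How they were made is not given in the sources used here, beyond GenomeStudio, named in the submitters' processing notes. Symbols came from the platform annotation, updated by Entrez number to RefSeq names (1 symbol for 34885 probes, several for 18, none for 10378).

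For the test, neqc of limma 3.58.1 (R 4.3.3) corrected background by normexp, with its parameters inferred from the detection p-values, then applied quantile normalization and log2 with an offset of 16. Probes detected (p under 0.05) on at least 2 of 5 arrays were tested, KO against WT, with lmFit and eBayes, two-sided, and called at a Benjamini-Hochberg adjusted p under 0.05 over the 3347 probes. Where no array of 1 group was detected, a bound uses the lowest detected signal of each array. The number of arrays limits the precision. With 3 arrays against 2, an exact permutation test of a single probe cannot give a two-sided p under 0.1, so none is given. The members, the lists and the rule for named genes (every member, and up to 3 genes of smallest p per further list) were chosen with earlier results of these data known. Alternatives covered background, scaling, offset, filter, variance model, array weights, replicate number, age and leaving out each array.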

Additional observations from a re-analysis of the deposited data

How the results depend on the processing

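The pump genes stayed below the threshold in every setting run: 0 member probes passed in all 23 alternatives (smallest adjusted p 0.178). Over all tested probes the count was 0 in each alternative that kept 5 arrays and ran from 0 to 33 with 1 array left out. It was above 0 only without KO replicate 1, at 27 with the others normalised anew and 33 with values kept. KO is then the single array that stood apart, and the spread comes from the WT arrays, with that array assumed to vary like them. The differences of Atp6v1e1 and Atp6v1g2 were below 0 in all 22 and 21 alternatives, from -1.34 to -0.21 and from -0.84 to -0.10.

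The median over the tested members, -0.13 as reported, was -0.049 without background correction, -0.084 on the authors' processed values, -0.87 under median scaling (where all tested probes had a median of -0.39), -0.056 after cyclic loess, -0.27 with detection p under 0.01, -0.26 with array weights and -0.018 with age as a covariate. With 1 array left out it ran from -0.50 to -0.028. The cause of these shifts was not tested. The replicate number is no known pairing: deviations of same-numbered samples correlated at 0.20 (number 1) and 0.13 (number 3), and as KO has 2 samples its deviations are mirror images, so crossed numbers give the same sizes with the sign turned. With it as a block the median was -0.031, 0 probes passed, and Atp6ap1 stood at -0.15.

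Some signs turned. Median scaling gave -0.87 for Atp6v1a, -0.30 for Atp6v1g1, -1.51 for Atp6ap1, -0.29 for Atp6v1b1, -0.17 for Tfe3, -0.14 for Glb1, -0.48 for Lamp2 and -0.33 for Npc1. Cyclic loess gave -0.037 for Atp6v1a and moved Atp6ap1 the other way, to 1.45. Age as a covariate gave 0.11 for Atp6v1b2, -0.018 for Atp6v1g1 and -0.23 for Atp6ap1. With 1 array left out, Atp6v1a ran from -0.21 to 0.24, Atp6ap1 from -0.40 to 0.44 and Tfe3 from -0.083 to 0.21. Where leaving out an array or a stricter filter left Atp6v1g1, Wdr7, Clcn3 or Clcn4 short of the detection filter, they have no value.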
